A study of Saccharomyces cerevisiae with 16 samples.

Results

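The comparison described here is that of newly made RNA in the Mot1-aa strain of Saccharomyces cerevisiae after 10 min of rapamycin with the same strain before rapamycin (0 min). It rests on 4 of the 16 two-colour arrays of the series, 2 independently grown cultures at each time, and on 5315 genes with a named probe. The arrays were chosen by the strain and time on their labels, and no measured value entered the choice. The question asked of every gene was whether culture 1 and culture 2 gave the same change.

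Mot1-aa and its parent WT-aa are anchor-away strains of mating type alpha in the BY4742 background. Both carried tor1-1, lacked FPR1, had RPL13A fused to FKBP12 with a NAT marker, were MET15, and had his3, leu2, lys2 and ura3 mutations. Mot1-aa differed by a Mot1 protein fused to FRB, yEGFP and 3V5 tags, which WT-aa did not have. Rapamycin bridges FRB and FKBP12, so that the tagged protein leaves the nucleus with ribosomal subunits while its gene stays in place. All cultures grew in synthetic complete medium with 2% glucose. The 10 min cultures received 7.5 µM rapamycin and the 0 min cultures none. The base analogue 4-thiouracil (4tU, 5 mM) was present for the last 6 min before harvest, so that the purified RNA was mostly made in that window. Each sample was hybridised against 1 common reference, a pool of 4tU-labelled RNA from WT-aa without rapamycin. Samples of culture 1 carried Cy3 and those of culture 2 carried Cy5, so a difference between cultures and one between dye orientations cannot be told apart.

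Mot1 is an ATPase of the Swi2/Snf2 family that uses ATP hydrolysis to lift the TATA-binding protein (TBP) off DNA. In yeast it is known to repress some genes by clearing TBP from their promoters and to help others by freeing TBP for reuse. TBP is brought to promoters by TFIID and by SAGA, and the genes that depend on SAGA include many that respond to stress and nutrients. Rapamycin itself inhibits the TORC1 kinase, which controls nitrogen use, stress genes and ribosome production. The tor1-1 allele makes TORC1 insensitive to the drug, and WT-aa received the same drug as Mot1-aa.

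Every value below is a log2 ratio of sample to reference, or a difference of such ratios. Loess normalization sets the typical gene of each array to a ratio of 0, so a change is relative to the other genes. When the arrays were instead scaled on external control spots, the median of all genes was 0.41 higher at 10 min than at 0 min. Those spots lay only 1.15 to 1.50 times over background on the 16 arrays. The test was limma, fitted to all 16 arrays with a term for dye orientation and adjusted over 5315 genes, and a gene is called where its adjusted p was under 0.05.

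A pair of features of the arrays bears on every result. The 0 min array of culture 1 was dim, with a gene signal 11.6 times its background, whereas the other 3 arrays of the comparison lay at 23.9, 26.2 and 27.2. The 10 min pair stood apart from all other pairs. The difference between cultures was taken per gene, less the median of that difference over the other groups. Its SD over genes was 0.38 in Mot1-aa at 10 min, and between 0.10 and 0.23 in the other 7 groups. That measure was 1 or more in size for 69 genes at 10 min, against 2 to 21 genes in the other groups. The fit uses 1 spread for all groups, which is smaller than that of the 10 min pair. With weights that let the spread of each array differ, the 10 min arrays of Mot1-aa received the lowest weight, 0.148, and 2 genes were called.

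**Figure D1:**
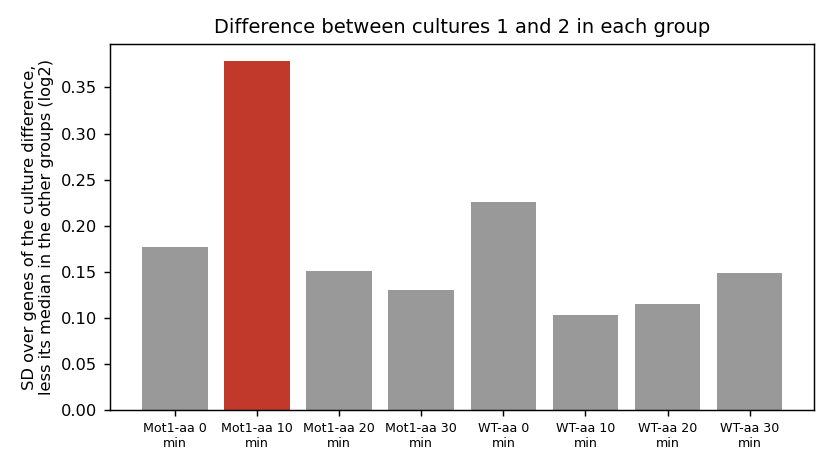
Bars show, for each of the 8 groups, the SD over 5315 genes of the difference between culture 1 and culture 2 on the log2 scale, less its median over the other groups. The Mot1-aa 10 min pair (red) stands at 0.38, and the other groups lie between 0.10 and 0.23.

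Most genes did not change the same way in both cultures. Of 5315 genes, 1255 (23.6%) were higher at 10 min in both cultures, 1049 (19.7%) were lower in both, and 3011 (56.7%) went in opposite directions. Across genes, the change in culture 1 correlated with that in culture 2 at r = -0.06, although each culture showed a similar spread of changes (SD 0.26 in culture 1 and 0.27 in culture 2). The same correlation was 0.82 for 20 min and 0.91 for 30 min against 0 min in Mot1-aa, and 0.17 for 10 min against 0 min in WT-aa. Genes are not independent replicates, and these coefficients are descriptions.

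The 2 arrays at 10 min also departed from their neighbours in time in opposite directions. For each culture, the 10 min value of a gene was set against the mean of its 0 and 20 min values. These departures correlated between cultures at r = -0.68 in Mot1-aa and at 0.22 in WT-aa, and the authors' deposited log2 ratios gave -0.65 and 0.23. Because the dyes were exchanged, both Mot1-aa arrays departed the same way when read as Cy5 over Cy3. What lies behind this was not tested. The dye labels of this pair, on which the sign of every 10 min value rests, were therefore checked against the other 6 Mot1-aa arrays. As labelled, the 10 min array of culture 1 correlated with those of its own dye orientation at r = 0.58 to 0.84 and with those of the other orientation at 0.52 to 0.77 across genes. For culture 2 the ranges were 0.64 to 0.73 and 0.42 to 0.72. All of these coefficients were positive as labelled. Whether an exchange of labels, times or cultures lies behind the departures was not tested.

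Large changes shared by both cultures were all rises. A change of 0.5 or more occurred in at least 1 culture for 583 genes. In culture 1, 227 genes were higher and 107 lower by that much, and in culture 2, 197 were higher and 129 lower. In both cultures, 53 genes (0.997% of those tested) were higher by 0.5 or more, none was lower, and 24 moved by that much in opposite directions. Of the 53, 49 were also called. The other 4 were HXK1 (hexokinase, 0.63, adjusted p = 0.109), PRM4 (0.71, adjusted p = 0.0511), SHR5 (0.50, adjusted p = 0.0518) and YGR050C (0.62, adjusted p = 0.0631, all by limma). These 4 are named after their values were seen. Only RSB1, AGP1 and BIO5 were higher by 1 or more in both cultures.

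**Figure D2:**
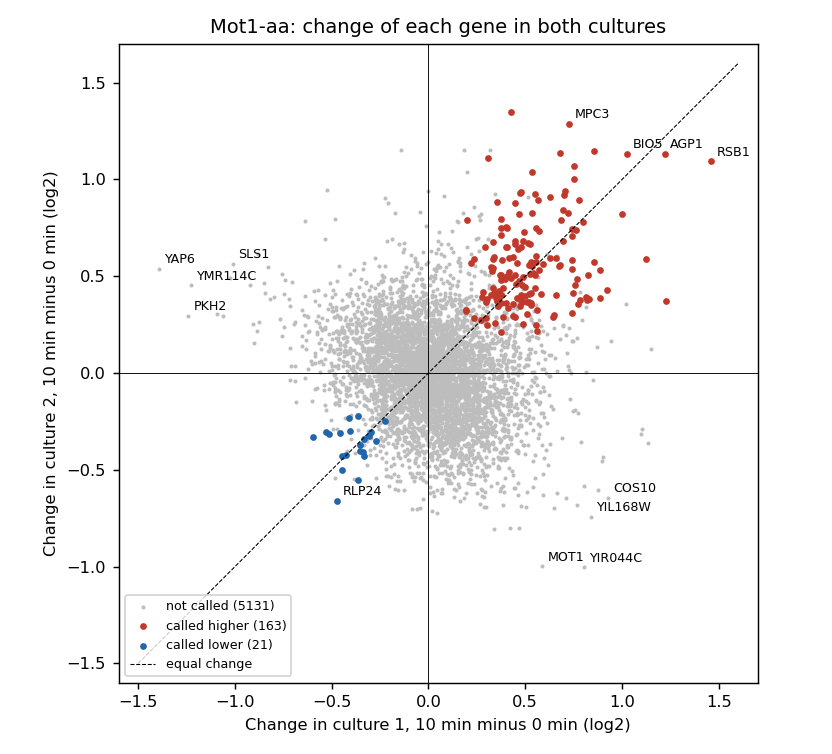
Each point is a gene, with its change from 0 to 10 min in culture 1 on the x axis and in culture 2 on the y axis (log2). The 163 genes called higher (red) and 21 called lower (blue) lie in the quadrants of equal sign. The 5131 genes not called (grey) lie in every quadrant, and over all genes r was -0.06. MOT1 and YAP6 lie far out in opposite corners.

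The test called 184 genes (3.46%), of which 163 (3.07%) were higher and 21 (0.395%) lower at 10 min. All 184 had the same direction in both cultures. A small difference between cultures helps a gene to pass, so this agreement is in part a property of the test. The median absolute difference between the cultures' changes was 0.14 for called genes and 0.25 for all genes. Both 10 min arrays lay above both 0 min arrays for 157 of the 163 rises, against 12.5% of all genes. Both lay below for 16 of the 21 falls, against 9.05% of all genes. Without regard to multiple testing, 861 genes had p under 0.05.

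The number of calls depended on single arrays. Without the dim 0 min array of culture 1, 55 genes were called, all higher. Without the 0 min array of culture 2, 95 were higher and 25 lower. Leaving out an array of the discordant 10 min pair raised the count, to 1233 without culture 1 and to 496 without culture 2. Of those 1233 genes, 574 had moved the opposite way in the culture that was left out, as had 191 of the 496. When 1 WT-aa 10 min array of either culture was left out, from the pair with the smallest difference between cultures, 113 genes were called. There were 47 rises and no falls that were called also without each of the 4 arrays of the comparison in turn. The 15 largest of those rises are described first, in their functional groups. Passing without each of those 4 arrays was how they were chosen, so it is no further support for them. With only the 8 Mot1-aa arrays in the fit, AGP1 alone of them was called, and with array weights only AGP1 and GSY1.

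**Figure D3:**
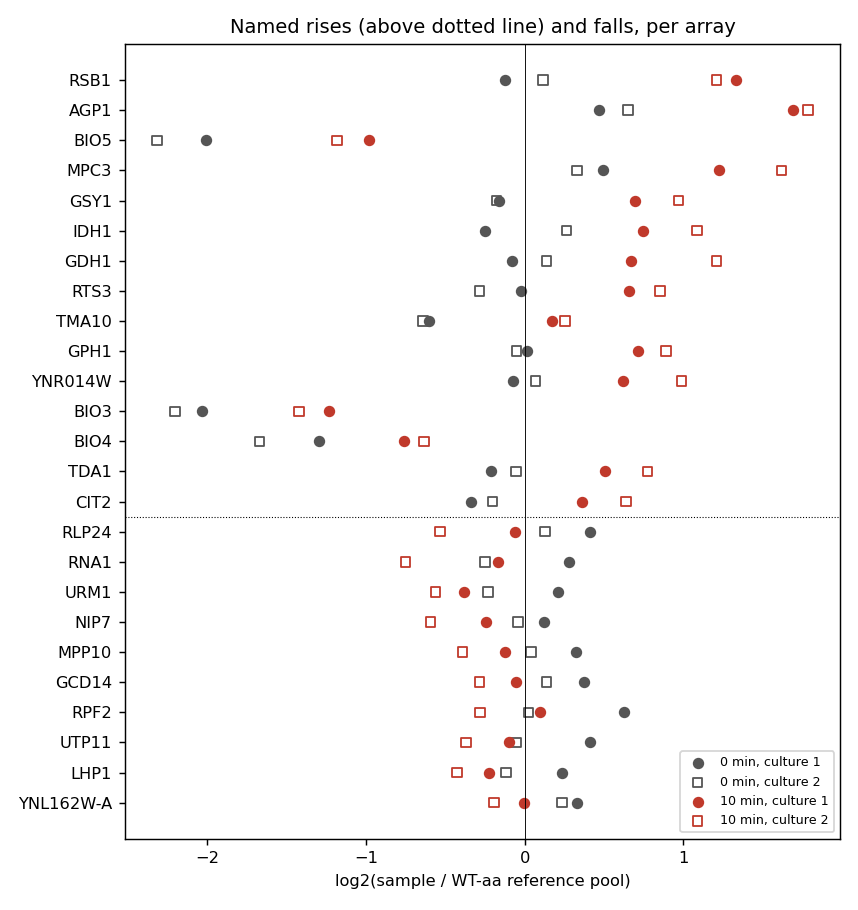
Points give the log2 ratio of sample to WT-aa reference for each of the 4 arrays (grey, 0 min, and red, 10 min, with filled circles for culture 1 and open squares for culture 2). For the 15 rises above the dotted line both 10 min arrays lie to the right of both 0 min arrays, whereas among the 10 falls below it RNA1 and RPF2 overlap.

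RSB1 and AGP1, both of membrane transport, changed most. RSB1 (YOR049C), which acts in the translocation of sphingoid long-chain bases across the plasma membrane, stood at -0.13 in culture 1 and 0.12 in culture 2 at 0 min, and at 1.33 and 1.21 at 10 min. The groups did not overlap, and the rise was 1.28 (SE 0.14, 2.42-fold, adjusted p = 9.9e-04 by limma, n = 2 per group). AGP1 (YCL025C), a broad amino acid permease, stood at 0.47 and 0.65 at 0 min and at 1.69 and 1.78 at 10 min. Its rise of 1.18 (SE 0.07, 2.26-fold) had the smallest adjusted p of all genes, 1.71e-05, and it was the only gene called with only the 8 Mot1-aa arrays in the fit. With array weights the 2 called genes were AGP1 (adjusted p = 0.00979) and GSY1 (adjusted p = 0.032).

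Among 20 amino acid permease genes, 3 (15%) rose, beside 3.07% of all genes, and none fell. Besides AGP1, these were AGP2 (YBR132C), a plasma membrane regulator of polyamine and carnitine uptake, at 0.61 (SE 0.08), and BAP3 (YDR046C), a branched-chain amino acid permease, at 0.37 (SE 0.07). BAP3 missed the threshold without the 0 min array of culture 1 (adjusted p = 0.184). GAP1 (YKR039W), the general amino acid permease that is repressed on good nitrogen sources, was at -0.12 and 0.06 at 0 min and at 0.40 and 0.33 at 10 min. Its difference of 0.40 did not pass (adjusted p = 0.0549). The median over the 20 genes was 0.26, with 13 higher in both cultures, 1 lower in both and 6 opposite, where the shares of all genes were 23.6%, 19.7% and 56.7%. In WT-aa 2 of the 20, AGP1 and AGP2, were called higher, beside 0.376% of all genes.

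Genes of nitrogen metabolism rose in small number. GDH1 (YOR375C), the NADP-dependent glutamate dehydrogenase that fixes ammonium, stood at -0.08 and 0.14 at 0 min and at 0.67 and 1.21 at 10 min, a rise of 0.91 (SE 0.10, 1.88-fold, adjusted p = 9.9e-04). GLN1 (YPR035W), glutamine synthetase, rose by 0.71 (SE 0.13). They were the 2 of 5 ammonium assimilation genes that were called (3.07% of all genes were higher), and GLN1 missed when either 0 min array was left out (highest adjusted p 0.124). In WT-aa GDH1 (0.94) and GLN1 (1.13) were called higher too, where 0.376% of all genes were. Of 38 genes under nitrogen catabolite repression, 4 (10.5%) rose in Mot1-aa, beside 3.07% of all genes, and none fell, with a median of 0.07. In WT-aa 1 of the 38, MEP3, was called higher (0.55). MEP3 (YPR138C), an ammonium permease, stood at 0.28 and 0.51 at 0 min and at 1.02 and 1.25 at 10 min, a rise of 0.74 (SE 0.08, adjusted p = 8.66e-04). The other 3 were CAR1 (arginase) at 0.71, ECM38 (gamma-glutamyltranspeptidase) at 0.55 and PRB1 (vacuolar proteinase B) at 0.44. CAR1 missed when either 0 min array was left out (highest adjusted p 0.0627) and PRB1 without that of culture 2 (0.0536). Of 48 genes of arginine synthesis and other Gcn4 targets, ARG1 (YOL058W), argininosuccinate synthetase, was the 1 that rose (0.61, SE 0.08), a share of 2.08% that lay near the 3.07% of all genes.

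Of 6 biotin genes, 5 (83.3%) rose, beside 3.07% of all genes, and none fell. BIO5 (YNR056C), which takes up a biotin precursor, stood at -2.01 and -2.32 at 0 min and at -0.98 and -1.18 at 10 min. Its rise was 1.08 (SE 0.14, 2.11-fold, adjusted p = 0.0023). Both times lay well under the WT-aa reference pool. BIO3 (YNR058W) and BIO4 (YNR057C), which follow it in the synthesis of biotin, showed the same arrangement. BIO3 was at -2.03 and -2.20 at 0 min and at -1.23 and -1.42 at 10 min (rise 0.79, SE 0.08). BIO4 was at -1.30 and -1.67 at 0 min and at -0.76 and -0.63 at 10 min (rise 0.79, SE 0.11). BIO2 (YGR286C), biotin synthase, rose by 0.65 (SE 0.07) and VHT1 (YGR065C), the biotin transporter, by 0.58 (SE 0.12). VHT1 missed when either 0 min array was left out (highest adjusted p over all arrays left out 0.158). BPL1, which attaches biotin to proteins, was the sixth member and was lower in both cultures (-0.14, adjusted p = 0.605). The median of the 6 genes was 0.72 in Mot1-aa and 0.32 in WT-aa, where none was called.

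The retrograde genes, which feed 2-oxoglutarate synthesis, gave 4 rises among 13 (30.8%, beside 3.07% of all genes). IDH1 (YNL037C), a subunit of mitochondrial isocitrate dehydrogenase, stood at -0.25 and 0.26 at 0 min and at 0.75 and 1.09 at 10 min, a rise of 0.91 (SE 0.09, 1.88-fold, adjusted p = 7.68e-04). CIT2 (YCR005C), peroxisomal citrate synthase, stood at -0.34 and -0.20 at 0 min and at 0.36 and 0.64 at 10 min, a rise of 0.77 (SE 0.07, adjusted p = 5.06e-04). ACO1 (aconitase) rose by 0.75 (SE 0.07) and CIT1 (mitochondrial citrate synthase) by 0.66 (SE 0.07). All 4 were called without each of the 4 arrays. In WT-aa, CIT2 rose by 1.00, CIT1 by 0.85 and ACO1 by 0.64, whereas the difference of IDH1 was 0.45 and did not pass (adjusted p = 0.0748). With DLD3, 4 of the 13 were called higher in WT-aa, where 0.376% of all genes were. The median of the 13 genes was 0.23 in Mot1-aa and 0.43 in WT-aa.

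Calls among the general stress genes under Msn2 and Msn4 were all rises. Of 40 genes, 13 (32.5%) rose, beside 3.07% of all genes, and none fell. In both cultures 30 were higher and none was lower, and 10 were opposite, beside 23.6%, 19.7% and 56.7% of all genes. The median was 0.40, with 0.37 in culture 1 and 0.38 in culture 2. GSY1 (YFR015C), glycogen synthase, stood at -0.16 and -0.18 at 0 min and at 0.69 and 0.97 at 10 min, a rise of 1.00 (SE 0.10, 2.00-fold, adjusted p = 7.68e-04). GPH1 (YPR160W), glycogen phosphorylase, stood at 0.01 and -0.05 at 0 min and at 0.72 and 0.89 at 10 min, a rise of 0.82 (SE 0.11, adjusted p = 0.00309). The groups overlapped for neither of these enzymes of glycogen turnover. The other rises were those of XBP1 (0.89), a transcriptional repressor, RTC3 (0.86), TSL1 (0.72), of trehalose synthesis, GAD1 (0.71), glutamate decarboxylase, PGM2 (0.60), phosphoglucomutase, MSC1 (0.58), SOL4 (0.53), ALD4 (0.46), SOD2 (0.43), mitochondrial superoxide dismutase, CTT1 (0.43), catalase T, and TFS1 (0.41). Without the 0 min array of culture 1, and likewise without that of culture 2, 4 of the 40 were called. HSP12 (YFL014W), a membrane-associated stress protein, was not called (adjusted p = 0.986) and was at 0.27 and -0.36 at 0 min and at 0.25 and -0.30 at 10 min. In WT-aa 3 of the 40 stress genes were called higher, among them GSY1, beside 0.376% of all genes.

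None of 23 chaperone genes of Hsf1 was called, beside 3.46% of all genes, and a list this short can hold no call at that share. Of the 23 chaperone genes, 13 were higher in both cultures, 2 lower in both and 8 opposite, beside 23.6%, 19.7% and 56.7% of all genes. Their median change was 0.33 in culture 1 and 0.04 in culture 2, a difference that was not tested. HSP42 (YDR171W), a small heat shock protein, came nearest, at -1.26 and -0.78 at 0 min and at -0.44 and -0.40 at 10 min (0.60, adjusted p = 0.0518). The 0 min array of culture 1, the dim one, was the lowest of its 4 values.

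Genes of the multidrug resistance regulon (Pdr1 and Pdr3) gave 6 rises among 22 (27.3%, beside 3.07% of all genes) and no fall, with a median of 0.26. RSB1 led them. ICT1 (YLR099C), a lysophosphatidic acid acyltransferase, rose by 0.73 (SE 0.10) and TPO4 (YOR273C), a polyamine exporter, by 0.66 (SE 0.10). YGR035C was at 0.25 and 0.63 at 0 min and at 1.01 and 1.64 at 10 min (0.88, SE 0.19, adjusted p = 0.0349), but missed without 13 of the 16 arrays, among them both 0 min arrays (highest adjusted p 0.289). The hexose transporter genes HXT9 (0.39, SE 0.06) and HXT11 (0.36, SE 0.06) are members of both this list and that of hexose transport. Their sequences are near copies of each other, so their probes may share RNA. In WT-aa 2 of the 22 multidrug resistance genes were called higher, beside 0.376% of all genes.

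Of 31 galactose and hexose transport genes, 5 (16.1%) rose, beside 3.07% of all genes, and none fell. Besides HXT9 and HXT11, these were MTH1 (YDR277C), a repressor of hexose transporter genes, at 0.56 (SE 0.10), HXT1 (YHR094C), the low-affinity glucose transporter, at 0.44 (SE 0.09), and HXT8 (YJL214W) at 0.40 (SE 0.08). In WT-aa 2 of the 31 were called higher, beside 0.376% of all genes. MTH1, HXT1 and HXT8 each missed when either 0 min array was left out, with a highest adjusted p of 0.131, 0.235 and 0.228.

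All 16 seripauperin genes (PAU), a subtelomeric family of cell wall proteins known from anaerobic growth, were higher in both cultures, beside 23.6% of all genes. Of them 13 (81.2%) were called higher, beside 3.07%. The estimates ran from 0.30 to 0.59, with a median of 0.46 against 0.18 in WT-aa, where none was called. PAU20 (YOL161C), which had the largest estimate, stood at 0.11 and 0.36 at 0 min and at 0.63 and 1.03 at 10 min (0.59, SE 0.11, adjusted p = 0.0152). The 3 not called were PAU14, PAU24 and PAU7 (adjusted p 0.0555, 0.0594 and 0.0566). The family is near-identical in sequence, so the probes may report the same RNA and the 16 values are not independent. Without the 0 min array of culture 1 only PAU22 was still called, and without that of culture 2, 8 were.

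The remaining 5 named rises are of mixed function. MPC3 (YGR243W), a subunit of the mitochondrial pyruvate carrier, stood at 0.50 and 0.33 at 0 min and at 1.22 and 1.62 at 10 min (1.01, SE 0.15, 2.01-fold). RTS3 (YGR161C) stood at -0.02 and -0.29 and then at 0.66 and 0.85 (0.91, SE 0.10). TMA10 (YLR327C), a ribosome-associated protein, stood at -0.60 and -0.64 and then at 0.17 and 0.25 (0.84, SE 0.12). TDA1 (YMR291W), a protein kinase, stood at -0.21 and -0.05 and then at 0.51 and 0.77 (0.77, SE 0.11). YNR014W, of unknown function, stood at -0.08 and 0.07 and then at 0.62 and 0.99 (0.81, SE 0.11). For none of these 5 did the 0 min and 10 min arrays overlap, which also held for 157 of the 163 called rises and so follows largely from the selection.

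In 4 further lists the rises were few, and no fall was called, where 0.395% of all genes fell. They were SMF3 (0.47), a vacuolar iron exporter, beside BIO5 and VHT1 among 30 iron regulon genes, and ERG28 (0.50) among 26 ergosterol genes. PHM8 (0.80), a phosphatase, rose among 24 genes of the phosphate regulon and GCV1 (0.44), of the glycine cleavage complex, among 32 of purine and one-carbon metabolism. The shares called higher were 10% for iron, 3.85% for ergosterol, 4.17% for phosphate and 3.12% for purines, and the last 3 lay near the 3.07% of all genes. The culture values of PHM8 were unequal, with 0.01 and 0.25 at 0 min and 1.24 and 0.63 at 10 min. When either 0 min array was left out, SMF3, ERG28, PHM8 and GCV1 all missed, with a highest adjusted p over the arrays left out of 0.367, 0.242, 0.382 and 0.12.

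The falls were smaller than the rises, and 6 of the 21 were on the list of ribosome biogenesis genes, which does not hold NIP7. Of 116 ribosome biogenesis genes, 6 (5.17%) were called lower, beside 0.395% of all genes, and none higher. None was higher in both cultures, 67 were lower in both and 49 were opposite, beside 19.7% of all genes lower in both. The median was -0.20, with -0.23 in each culture, against -0.11 in WT-aa. This direction holds relative to other genes only: with scaling on external spots the list's median was 0.28, below the 0.41 of all genes. Without the 0 min array of culture 1 none of the 116 was called, and the median was -0.20.

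RLP24 (YLR009W), a large subunit assembly factor, had the largest fall. It stood at 0.41 and 0.13 at 0 min and at -0.06 and -0.53 at 10 min, and fell by 0.57 on the log2 scale (SE 0.11, adjusted p = 0.0185). MPP10 (YJR002W), of the small subunit processome, stood at 0.32 and 0.04 at 0 min and at -0.12 and -0.39 at 10 min, and fell by 0.44 (SE 0.07, adjusted p = 0.00937). RPF2 (YKR081C), which brings the 5S ribonucleoprotein into the large subunit, stood at 0.62 and 0.02 and then at 0.10 and -0.28 (-0.42, SE 0.10, adjusted p = 0.045), so that its groups overlapped. The other 3 called were UTP11 (-0.41), of the processome, DRS1 (-0.38), a helicase of large subunit assembly, and NUG1 (-0.31), a GTPase of the same pathway. In each of RLP24, MPP10, RPF2 and UTP11 the dim 0 min array of culture 1 was the highest value, and each missed the threshold without it (highest adjusted p over the arrays left out 0.2, 0.123, 0.388 and 0.257).

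NIP7, RNA1, URM1, GCD14, LHP1 and YNL162W-A make up the rest of the 10 named falls. NIP7 (YPL211W), also of ribosome assembly, fell by 0.46 on the log2 scale (SE 0.11), and LHP1 (YDL051W), the yeast La protein, by 0.38 (SE 0.09). RNA1 (YMR235C), the GTPase-activating protein of Ran, stood at 0.28 and -0.25 at 0 min and at -0.17 and -0.75 at 10 min (-0.47, SE 0.09), with overlap. URM1 (YIL008W), a ubiquitin-like modifier of tRNA thiolation, fell by 0.46 (SE 0.09), GCD14 (YJL125C), of the tRNA methyltransferase for 1-methyladenosine, by 0.42 (SE 0.06), and YNL162W-A by 0.38 (SE 0.08). None of the 10 falls remained called without the 0 min array of culture 1. The adjusted p without an array reached 0.0559 for GCD14 and between 0.123 and 0.388 for the other 9. Without the 0 min array of culture 2, RLP24, NIP7, UTP11, LHP1 and YNL162W-A also missed. RPF2, NIP7, LHP1 and UTP11 missed also without arrays of WT-aa, which lie outside the comparison. With median centring MPP10, NIP7, RPF2, UTP11 and LHP1 missed. The same genes, RNA1 and URM1 missed with the authors' deposited log2 ratios. None of the 10 falls was called with array weights or without the dye term.

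The list of 126 cytosolic ribosomal protein genes gave no call in either direction, where 3.07% of all genes were higher and 0.395% lower. It also holds RPP1 (YHR062C), a subunit of RNase P that is not a ribosomal protein. The list's median was -0.06, with 7 higher in both cultures, 30 lower in both and 89 opposite. The shares of all genes were 23.6%, 19.7% and 56.7%. The sign of this median depended on the scaling, since median centring in place of loess gave 0.03 and external spots 0.45.

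**Figure D4:**
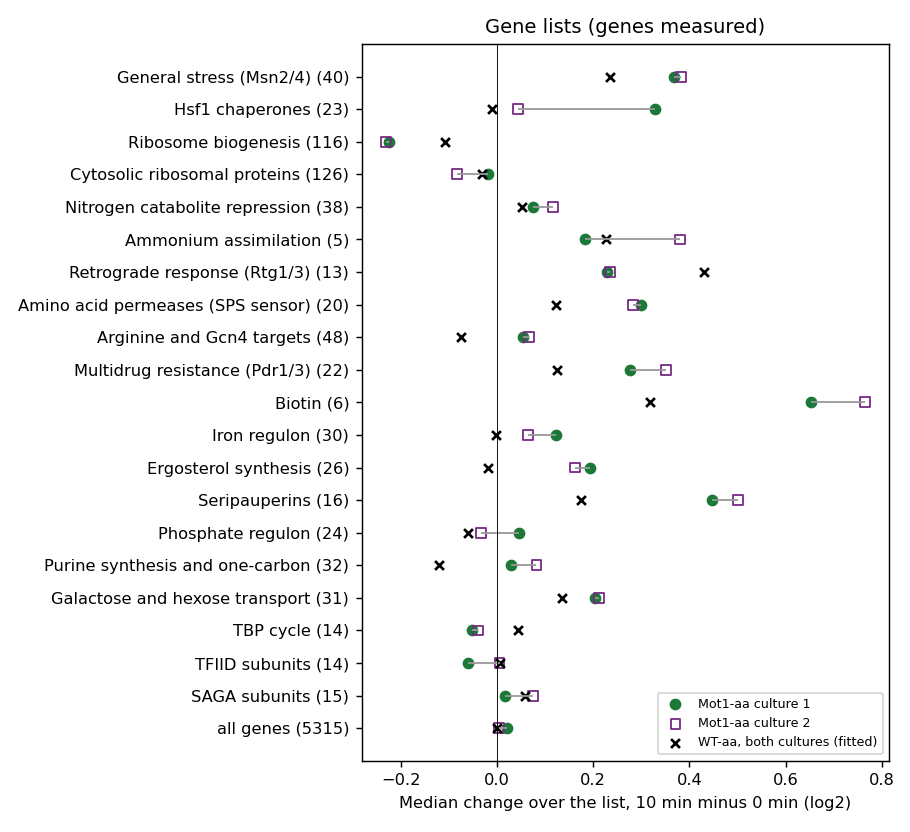
For each gene list (number of genes measured in brackets) the median change from 0 to 10 min is given on the log2 scale for Mot1-aa culture 1 (circle), Mot1-aa culture 2 (square) and WT-aa (cross). The cultures lie close together for general stress (0.37 and 0.38) and ribosome biogenesis (-0.23 and -0.23), and far apart for the Hsf1 chaperones (0.33 and 0.04).

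MOT1 (YPL082C) itself was among the genes whose cultures disagreed most. It stood at -0.18 in culture 1 and -1.31 in culture 2 at 0 min, and at 0.40 and -2.31 at 10 min. Its change was 0.59 in culture 1 and -0.997 in culture 2, and the estimate was -0.21 (SE 0.56, adjusted p = 0.919). Anchor-away removes the protein and leaves the gene, so this level is no check of the depletion. SPT15 (YER148W), which encodes TBP, stood at -0.35 and 0.35 at 0 min and at 0.07 and 0.21 at 10 min (0.14, SE 0.11, adjusted p = 0.62). None of 14 genes of the TBP cycle, 14 TFIID subunits and 15 SAGA subunits was called, with medians of -0.05, 0.00 and 0.08. Of all genes 3.46% were called, and lists this short can hold no call at that share.

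Besides MOT1, the genes with the widest disagreement were of 2 kinds. YIR044C (0.80 in culture 1 and -1.002 in culture 2), YIL168W (0.84 and -0.74) and COS10 (0.93 and -0.64), of a subtelomeric family, had 0 min arrays near each other and split at 10 min. YIR044C, for example, was at -0.05 and -0.12 at 0 min and at 0.75 and -1.13 at 10 min. In YAP6 (-1.39 and 0.54), a transcription factor of the basic leucine zipper class, YMR114C (-1.23 and 0.45), SLS1 (-1.01 and 0.57), a mitochondrial membrane protein, and PKH2 (-1.24 and 0.30), a protein kinase, the 0 min array of culture 1 was the high one. It read 1.02 for YAP6, 0.97 for YMR114C, 1.14 for SLS1 and 1.00 for PKH2, whereas the other 3 arrays lay between -0.37 and 0.48. Of the 24 genes that moved by 0.5 or more in opposite directions, 16 were higher in culture 1 and 8 in culture 2.

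In WT-aa, which has no tagged Mot1, many of these genes changed the same way after rapamycin, by less. No culture was kept without rapamycin for the same time, so an effect of the drug apart from time was not tested. Of the 163 rises in Mot1-aa, 155 were positive in WT-aa, with a median of 0.22 there against 0.52 in Mot1-aa. All 21 falls were negative in WT-aa, with a median of -0.15 against -0.38. The genes were selected on the Mot1-aa values, which makes the Mot1-aa medians larger. In WT-aa itself 20 genes were called higher (0.376%) and 2 lower (0.0376%), 0.414% in all. Of these, 19 and 1 (YMC1, a mitochondrial carrier) were called the same way in Mot1-aa. The others were DLD3 (0.57 in WT-aa, and 0.18 with adjusted p = 0.231 in Mot1-aa) and AAH1 (adenine deaminase, -0.40 in WT-aa and -0.02 in Mot1-aa).

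The difference between the strains was tested gene by gene, as the change in Mot1-aa minus that in WT-aa. No gene passed (limma, smallest adjusted p = 0.111), and 225 of 5315 had an unadjusted p under 0.05. The estimate was positive for 153 of the 163 rises and negative for 20 of the 21 falls, values that contain the selecting contrast. Among the 15 named rises it ran from -0.23 for CIT2 and -0.03 for GDH1 up to 0.65 for RSB1. For AGP1 the rise was 1.18 in Mot1-aa and 0.80 in WT-aa (adjusted p = 2.75e-04), and for GSY1 it was 1.00 and 0.86 (adjusted p = 0.00382). Without the 10 min array of culture 1, 18 genes passed, and without that of culture 2 only GAT4 did (1.22, adjusted p = 3.22e-04).

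**Figure D5:**
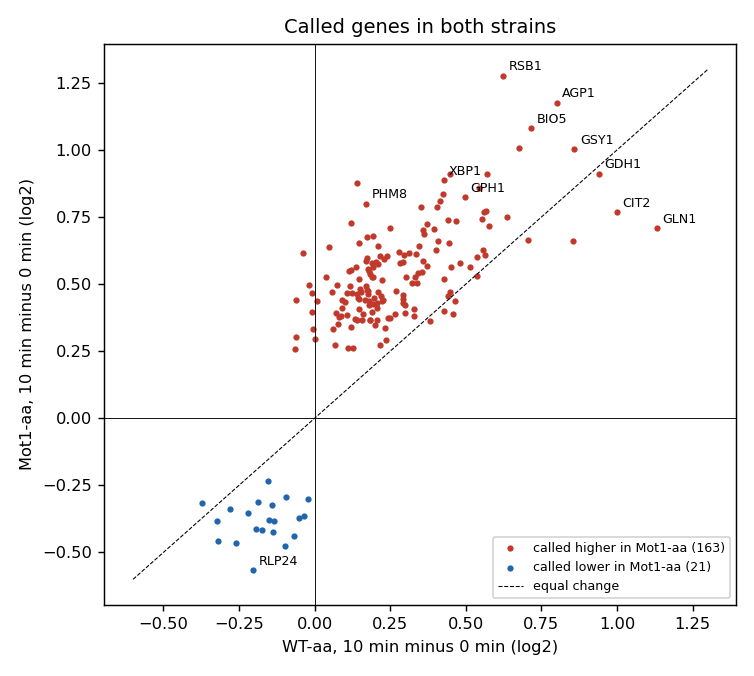
The 184 genes called in Mot1-aa are shown with their change from 0 to 10 min in WT-aa on the x axis and in Mot1-aa on the y axis (log2). Most rises (153 of 163) lie above the dashed line of equal change, and CIT2, GLN1 and GDH1 are among those below it.

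From 10 to 20 min, 227 genes were called in Mot1-aa (4.27%), 208 of them higher (3.91%) and 19 lower (0.357%). Across all genes, the changes of culture 1 and culture 2 from 10 to 20 min correlated at r = -0.21, so most genes were not replicated in direction by this comparison. Of the 163 rises at 10 min, 70 were higher again at 20 min, 93 were not called and none was lower. Of the 21 falls, 1 was lower again and 20 were not called. This comparison shares the 10 min arrays with the one above. GPH1 rose by a further 0.87 (SE 0.11, adjusted p = 0.00352), CTT1 by 0.90 and MSC1 by 0.83, and 9 of the 13 stress genes called at 10 min were higher again. RSB1 changed by 0.00 (adjusted p = 1) and GSY1 by 0.02 (adjusted p = 0.963) between 10 and 20 min, so that their level at 20 min was close to that at 10 min. HSP12, not called at 10 min, was higher by 1.12 at 20 min (adjusted p = 0.027). The count of 227 was 17 without the 20 min array of culture 2 and 58 without that of culture 1. It was 1518 without the 10 min array of culture 1 and 587 without that of culture 2.

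The strain's mating type was checked on 4 MATalpha and 7 MATa marker genes, none of which was called, beside 3.46% of all genes. The 99th percentile of the negative spots lay between 56.1 and 57.6 on the 4 arrays. All 4 MATalpha probes exceeded it on all 4 arrays, and so did 6 of the 7 MATa probes. The lowest signal of STE3, the a-factor receptor of alpha cells, was 3913. Among the MATa probes, that of MFA1, the a-factor gene, was 61.6 and that of STE2, the alpha-factor receptor, was 119.5. Exceeding the negative spots did not separate the MATalpha from the MATa markers, and the signals given here do not stand for the other markers. Of the 184 called genes, AIM17 and YEL076C did not exceed that percentile on all 4 arrays.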

How the data were processed

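Spot intensity values of both channels were deposited as scanner tables, without normalization. The authors' deposited log2 ratios, of unstated normalization, served as an alternative. Scanner, software and genome build are not given in the sources used here. Each array held 15552 spots, of which 12776 were gene spots in duplicate. Names were matched to a RefSeq gene table of 1 yeast assembly (5255 by symbol, 54 by synonym, 6 kept), and 1062 probes without a name were left out. Intensities were background-corrected (normexp, offset 50), loess-normalized over gene spots, turned to sample over reference, and averaged over duplicate spots with limma 3.58.1 in R 4.3.3. One limma model held the 8 groups and dye orientation, with 7 residual and 3.54 prior degrees of freedom. P-values were two-sided and Benjamini-Hochberg adjusted, with a threshold of 0.05, and the fit was tested on simulated data. Only 2 cultures per group limit the precision.

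Dye orientation and culture number coincide, so that term also acts as the replicate block. Same-numbered arrays deviated together (median r 0.62 over 28 pairs of groups, range -0.36 to 0.78), and whether the times of a strain came from 1 culture is not given. The genes named were the 15 largest rises and 10 largest falls that changed alike in both cultures and were called without each of the 4 arrays (no fall met that last condition, so the 10 largest called falls were taken), the 8 genes with the widest disagreement, up to 6 members of each list, MOT1 and SPT15. The comparison, the lists and the rules were chosen with earlier results of these data known. Alternatives were median centring, external-spot scaling, no background correction, the deposited log2 ratios, array weights, no dye term, Mot1-aa arrays alone, a filter on dim probes, other sizes of change and each array left out. Sequences and coordinates were not used here.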

Additional observations from a re-analysis of the deposited data

Results flagged for a closer look

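For 4 of the 15 named rises, and for none of the 10 named falls, the level at 20 min differed from that at 10 min in Mot1-aa by limma's test across all genes. Of all genes, 3.91% were called higher and 0.357% lower at 20 min, so no call among 10 falls lies near the share of all genes. The comparison rests on the discordant 10 min pair. AGP1 was higher by a further 0.37 (SE 0.07, adjusted p = 0.0122), after 1.18 at 10 min. IDH1 was higher by a further 0.52 (SE 0.09, adjusted p = 0.0124), after 0.91. GPH1, glycogen phosphorylase, was higher by a further 0.87 (SE 0.11, adjusted p = 0.00352), after 0.82, and YNR014W by a further 0.46 (SE 0.11, adjusted p = 0.0417), after 0.81.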

How the results depend on the processing

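The comparison of 10 min with 0 min called 184 genes. The count was 120 (115 higher, 5 lower) with median centring, 5 (all higher) with external-spot scaling, 2 with array weights, 44 (all higher) with no replicate block, and 1 with only the 8 Mot1-aa arrays. It lay between 153 and 185 with no background correction, the authors' deposited log2 ratios and the filter on dim probes. Leaving out arrays gave 55 to 1233. The 5 genes under external-spot scaling were AGP1, BIO4, BIO5, MPC3 and RTS3. That scaling raised the median gene by 0.41 and turned 19 of the 184 estimates, among them RNA1 (0.0124), NIP7 (0.0465), MPP10 (0.0958), GCD14 (0.0501), RPF2 (0.078), UTP11 (0.0667), LHP1 (0.123) and YNL162W-A (0.0139); median centring turned 1. The strain difference called 0 genes under every alternative that kept both 10 min Mot1-aa arrays, and 0 to 18 with arrays left out. The comparison of 20 with 10 min called 227 genes, and 77 with median centring, 0 with external-spot scaling, 1 (MTD1) with array weights, 41 with no replicate block, 0 with only the 8 Mot1-aa arrays, and 17 to 1518 with arrays left out. Genes higher by 0.5 or more in both cultures numbered 53, and 159 with external-spot scaling; changes of at least 0.3 gave 211 (182 higher, 29 lower) and of at least 1 gave 3. The correlation between cultures stayed between -0.06 and -0.04 over the scaling, background, filter and deposited-ratio alternatives. The causes were not tested.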

Other observations

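Some of the 47 rises that were called without each of the 4 arrays belong to none of the lists, and are named here after their values were seen. VHR1 (YIL056W), the transcription factor known to activate BIO5 and VHT1, stood at -0.26 and -0.07 at 0 min and at 0.40 and 0.52 at 10 min, a rise of 0.63 (SE 0.08, adjusted p = 0.002 by limma). MSN4 (YKL062W), which encodes a transcription factor of the general stress genes, stood at 0.41 and 0.22 at 0 min and at 1.10 and 0.90 at 10 min, a rise of 0.69 (SE 0.07). NRG1 (YDR043C), a repressor of glucose-repressed genes, stood at 0.66 and 0.28 and then at 1.20 and 1.11, a rise of 0.68 (SE 0.08). In WT-aa the changes of VHR1, MSN4 and NRG1 were 0.40, 0.36 and 0.19, none of them called.

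ASN1 (YPR145W), asparagine synthetase, rose by 0.66 (SE 0.09), and also in WT-aa (0.71, adjusted p = 0.0064). ALD6 (YPL061W), cytosolic aldehyde dehydrogenase, rose by 0.58 (SE 0.07), and in WT-aa by 0.48. RNR2 (YJL026W), the small subunit of ribonucleotide reductase, rose by 0.64 (SE 0.07), ORM2 (YLR350W), a regulator of sphingolipid synthesis, by 0.53 (SE 0.06), and ITR1 (YDR497C), the inositol transporter, by 0.51 (SE 0.07). In WT-aa the changes of RNR2, ORM2 and ITR1 were 0.21, 0.19 and 0.22 and did not pass. For all 8 genes named here, both 10 min arrays lay above both 0 min arrays. The same held for 157 of the 163 called rises and for 12.5% of all genes, so it follows largely from how the 8 were selected.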
